A study of Mus musculus with 10 samples.

Results

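The right ventricular free wall was compared with the ventricular septum, the wall that separates the ventricles. The arrays titled RV1 to RV4 and Septum1 to Septum3 were used, which is 7 of the 10 arrays of the series. The other 3 hold the left ventricle (LV) and entered the model to estimate the spread and the slide difference. All tissue came from C57BL/6N mice with no treatment named for these samples, and their age and sex are not given in the sources used here. The ventricles were flushed with cold saline before the hearts were divided and frozen. Total RNA from the frozen pieces was read on Agilent mouse arrays that carry a single dye, Cy3. Different individuals were used for each experiment according to the design text, but nothing states whether an RV and a septum piece of the same number came from 1 heart. Every piece held many cell types, so fewer cells of a type and less RNA per cell cannot be told apart in any value below.

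The free wall and the septum differ in what they border. The free wall carries the epicardium, a mesothelial sheet, on its outer face and endocardium on its inner face, whereas the septum has a ventricular cavity on either side and holds the bundle branches of the conduction system. Conduction cells express transcription factors, connexins and pacemaker channels that set them apart from working muscle. Homeobox factors of the Iroquois family pattern the ventricles, and in the embryonic mouse heart Irx1 and Irx2 are known for their expression in the septum.

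A level is the log2 signal minus the 75th percentile of its array, so that 0 is a probe at that percentile. A difference is the log2 value of RV minus septum from limma, with a term for the slide. A difference was called when the Benjamini-Hochberg adjusted p over 30234 probes was below 0.05. The arrays lay on 2 slides, with replicates 1 and 2 on slide 1 and RV3, RV4 and Septum3 on slide 2. Between 54.2% and 64.0% of the spots of the RV and septum arrays were well above background. No spot was saturated. The number of arrays limits the precision. Of 14641 genes tested by their brightest probe, 11.1% were called, 782 higher (5.34%) and 836 lower (5.71%) in RV, and the median difference of all of them was -0.03. The 2 regions did not overlap for 6.94% of the genes with RV above the septum and for 9.04% with RV below. The counts of each gene list below are to be read against the shares of all genes, 11.1% called, 5.34% higher and 5.71% lower. Among the probes, 8.74% passed (4.03% upward and 4.72% downward in RV). Of these calls 46.0% were higher in RV, against 60.4% when the percentile was taken over probes detected on all arrays and 58.0% without the slide term. Without the slide term 2.7% of the genes were called. Without Septum3, 709 probes were called against 2643, and without Septum2 1181.

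The labelled tissue was checked against markers of heart cells. Cardiomyocyte transcripts were well above background on every array, with Tnnt2, cardiac troponin T, averaging 9.10 in RV (SD 0.09, n = 4) and 9.06 in the septum (SD 0.20, n = 3). Of 14 cardiomyocyte markers, 4 were lower in RV (Mybpc3, Ttn, Csrp3 and Myom1, by 0.30 to 0.42), and the median of the list was -0.15. With a term for the replicate number in place of the slide (the replicate block), Myom1 was not called. The mean level of 10 atrial markers reached 3.33 on Septum1, against 0.98 and 1.91 on the other septum arrays and 0.61 to 1.88 on the RV arrays. Myl7, the atrial myosin light chain, read 6.90, 4.60 and 2.69 on Septum1 to Septum3, and 4.50, 2.81, 4.04 and 1.84 on RV1 to RV4. The groups overlapped for Myl7. Its difference of -1.30 was not called (adjusted p = 0.477), and the part of atrial tissue in the results below was not tested.

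To show sequence of genes with large changes, the 250 bases before the annotated start are printed for the patterning factor Irx2 and the conduction marker Cntn2, which were lower in RV, and for the surface genes Upk3b and Lrrn4, which were higher. They are RefSeq sequence of GRCm38.p6, read 5′ to 3′ on the strand of the gene, from chr13:72628570-72628819 (plus strand), chr1:132542941-132543190 (minus), chr5:136038246-136038495 (plus) and chr2:132880863-132881112 (minus). Capitals mark matches, on either strand, to CATTCC, the M-CAT element that TEAD factors bind, to the T-box site AGGTGTG or to the GATA element AGATAA.
Irx2: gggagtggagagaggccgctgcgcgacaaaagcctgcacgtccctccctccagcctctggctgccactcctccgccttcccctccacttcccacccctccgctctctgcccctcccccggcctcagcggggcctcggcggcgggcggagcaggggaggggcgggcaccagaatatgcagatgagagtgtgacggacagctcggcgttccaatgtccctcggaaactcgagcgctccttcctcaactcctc
Cntn2: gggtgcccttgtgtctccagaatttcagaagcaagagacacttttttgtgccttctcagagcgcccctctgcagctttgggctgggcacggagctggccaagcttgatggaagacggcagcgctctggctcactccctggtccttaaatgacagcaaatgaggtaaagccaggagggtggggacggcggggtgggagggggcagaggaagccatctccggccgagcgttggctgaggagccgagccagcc
Upk3b: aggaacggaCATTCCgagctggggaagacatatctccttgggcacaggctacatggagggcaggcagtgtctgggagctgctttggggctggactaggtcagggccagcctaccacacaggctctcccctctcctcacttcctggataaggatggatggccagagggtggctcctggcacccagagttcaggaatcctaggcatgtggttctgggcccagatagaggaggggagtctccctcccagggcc
Lrrn4: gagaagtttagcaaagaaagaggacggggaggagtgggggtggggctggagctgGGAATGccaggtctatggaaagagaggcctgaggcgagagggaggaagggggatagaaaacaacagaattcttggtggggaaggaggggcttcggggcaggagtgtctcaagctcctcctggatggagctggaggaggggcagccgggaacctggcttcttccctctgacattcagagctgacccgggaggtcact
Upk3b held CATTCC and Lrrn4 held its reverse complement GGAATG, while none of the 3 motifs was in the Irx2 or Cntn2 window. Of all 32851 RefSeq promoters, 12.6% held the M-CAT element, 5.1% the T-box site and 9.99% the GATA element. Of the 23 mesothelial genes with a promoter there, 5 held the M-CAT element, 4 the T-box site and 3 the GATA element. A match is a description of the letters and not a binding site.

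Among transcripts of the conduction system, Cntn2, Cacna1g, Tbx3, Cpne5, Cacna2d2 and Nppa were lower in RV than in the septum, and Sema3a, Slit2, Igfbp5 and Id2 were higher. Of 29 conduction genes tested, 10 were called, against 11.1% of all genes. The 6 decreases and 4 increases left a median of -0.17. Nppa is also in the atrial list and in the list of load genes below, and is counted again there. The call of Nppa was lost in 14 of the alternatives, and its septum minus LV was 0.11 and not called (adjusted p = 0.99). Cntn2 encodes contactin-2, an adhesion molecule that marks Purkinje cells. Its level was -2.58, -2.48, -2.93 and -2.51 on RV1 to RV4 and -0.31, -1.06 and -0.45 on Septum1 to Septum3. Every septum array lay above every RV array, and the difference was -1.97 (SE 0.27, adjusted p = 0.00462). It was -1.85 within slide 1 and -2.27 within slide 2, where neither was called. The septum also exceeded LV, by 2.88 (SE 0.28, adjusted p = 0.0411), and Cntn2 was well above background on 1 of 3 LV arrays.

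Cacna1g, the T-type calcium channel Cav3.1, had a smaller shift of the same kind. It read -0.29, -0.27, -0.16 and -0.03 in RV and 0.26, 0.14 and 0.49 in the septum, and differed by -0.52 (SE 0.060, adjusted p = 0.0022). The septum exceeded LV by 0.71 (adjusted p = 0.0383). Neither comparison was called for Cacna1g without the slide term (RV against septum, adjusted p = 0.0556). Tbx3, a T-box repressor of the working muscle programme in conduction cells, read 1.29, 1.46, 1.92 and 2.19 in RV and 2.09, 2.10 and 2.78 in the septum. The RV and septum arrays overlapped across slides but not within either slide, and the difference was -0.73 (SE 0.094, adjusted p = 0.00373). It was -0.60 without the slide term and then not called. A difference of Tbx3 between septum and LV was not called (0.22, adjusted p = 0.80).

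The calcium channel subunit Cacna2d2 averaged -1.62 in RV (SD 0.29, n = 4) and -0.42 in the septum (SD 0.72, n = 3), and the difference was -1.16. The copine Cpne5 stood at -0.51 ± 0.27 (SD, n = 4) and 0.67 ± 0.52 (SD, n = 3), a difference of -1.15. No RV array reached a septum array for either gene. Septum1 was the highest septum array for both, at 0.41 for Cacna2d2 and 1.26 for Cpne5. The call of Cacna2d2 (adjusted p = 0.0445) was lost in 17 of the alternatives, with the replicate number as a block among them (-1.08, adjusted p = 0.0647), and Cpne5 (adjusted p = 0.0242) was not called under that block either (-1.09, adjusted p = 0.0597). The genes that are best known from pacemaker and Purkinje cells were not called beyond these. Gja5, connexin 40, differed by -0.48 (adjusted p = 0.0503) and Hcn4, the main pacemaker channel, by -0.33 (adjusted p = 0.0604), with every RV array of Hcn4 below the septum arrays. Pcp4 stood at -1.16 (adjusted p = 0.137), Scn10a at 0.60 (adjusted p = 0.136), Irx3 at -0.27 (adjusted p = 0.0816) and Etv1 at 0.004 (adjusted p = 0.99).

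The conduction genes that were higher in RV included guidance cues. Slit2, a secreted guidance cue, read -0.64, -0.90, -1.46 and -0.81 in RV and -2.21, -2.15 and -2.16 in the septum, and differed by 1.24 (SE 0.17, adjusted p = 0.00523). Sema3a, a repellent of sympathetic axons in the heart, differed by 1.26 (SE 0.19, adjusted p = 0.00645) and was well above background on 1 septum array. With signals below the background floor set to that floor (the lowest signal well above background on the array), an alternative chosen after the data were seen, Sema3a differed by 0.90 and was not called (adjusted p = 0.0650). The binding protein of insulin-like growth factors Igfbp5 rose by 1.01 (SE 0.12, adjusted p = 0.00265), and Id2, an inhibitor of basic helix-loop-helix factors, by 0.997 (SE 0.078, adjusted p = 0.00043). All 4 separated RV from the septum without overlap. Without Septum3 the list held 4 increases and 3 decreases, and without the slide term 4 and 2.

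**Figure D1:**
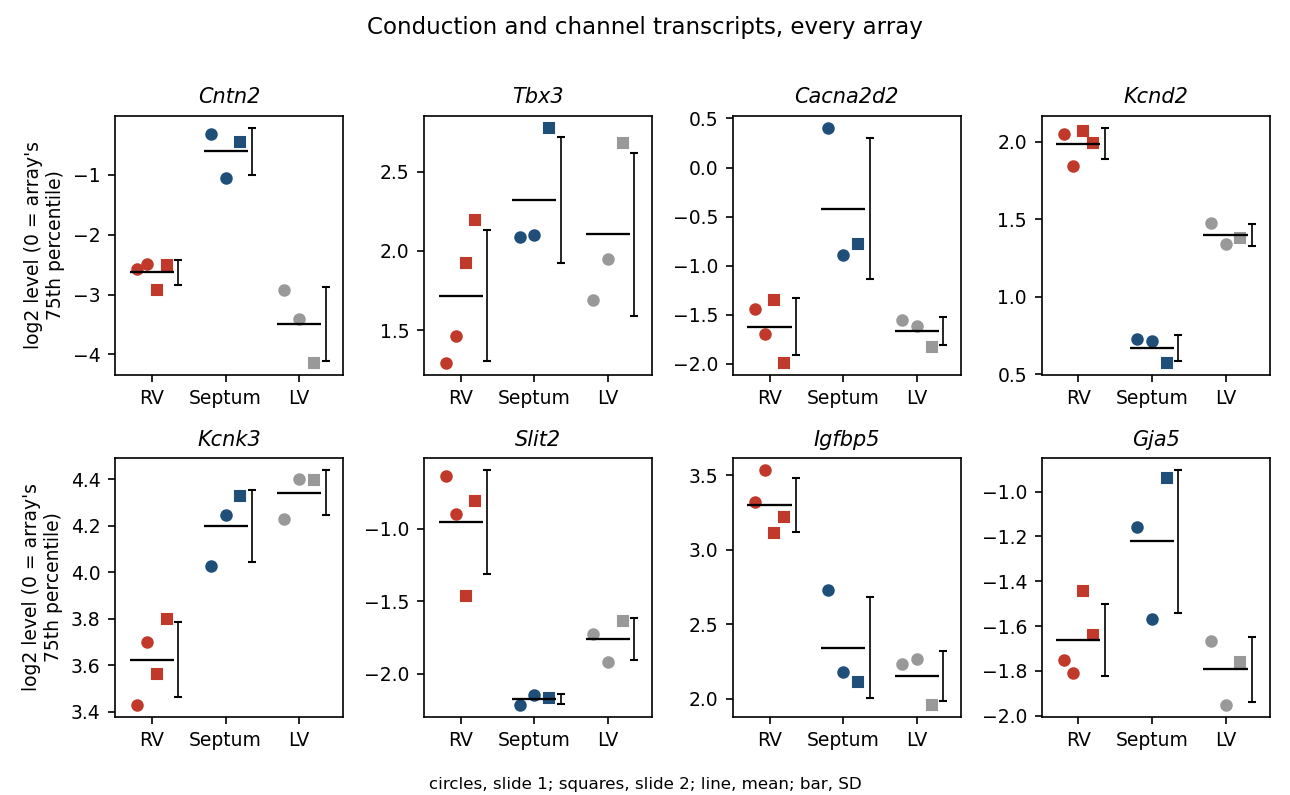
Log2 level of 8 conduction and channel transcripts on each RV, septum and LV array, with the mean as a line and the SD as a bar. Cntn2 was higher on each septum array than on any RV or LV array, and Kcnd2 was lowest in the septum.

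Channels and transporters of working muscle mostly did not pass the test, with Kcnd2 as the largest change. Of 22 tested, 1 was higher (5.34% of all genes) and 3 were lower (5.71%) in RV, with a median of -0.13. Kcnd2 encodes the potassium channel Kv4.2, which carries the transient outward current. It read 2.05, 1.84, 2.07 and 1.99 in RV and 0.73, 0.72 and 0.57 in the septum, and differed by 1.32 (SE 0.075, adjusted p = 0.000163). The call held in every alternative run. LV lay between them at 1.40 ± 0.07 (SD, n = 3), below RV by 0.59 (adjusted p = 0.00264) and above the septum by 0.73 (SE 0.080, adjusted p = 0.0411). Each step of the order RV, LV, septum passed the test for Kcnd2, although the step between LV and septum was called neither without the slide term nor with the replicate number as a block.

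Kcnk3, the background potassium channel TASK-1, fell by 0.60 (SE 0.097, adjusted p = 0.00867) from septum to RV, and every RV array (3.43 to 3.80) lay below every septum array (4.03 to 4.33). Slc8a1, the sodium-calcium exchanger, was lower by 0.47 on the log2 scale, with RV arrays from -0.01 to 0.22 and septum arrays from 0.56 to 0.68 (SE 0.063, adjusted p = 0.00423). Kcnj11, the pore of the ATP-sensitive potassium channel, differed by -0.35 (adjusted p = 0.0167) with overlapping arrays. A second probe was not called for Slc8a1 or for Kcnj11. Kcnip2, the partner of Kv4 channels, stood at -0.08 (adjusted p = 0.719) and Kcnd3 at 0.03 (adjusted p = 0.788), and Kcna4 did not pass the filter on low values. Ryr2, the calcium release channel, differed by -0.22 (adjusted p = 0.0511) and was not called.

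Of the patterning factors, members of the Iroquois family had the largest decreases in RV. Irx1 read -1.02, -0.73, -1.06 and -0.75 in RV and 1.39, 1.87 and 2.25 in the septum, and the difference came to -2.73 (SE 0.21, adjusted p = 0.000403). No alternative removed the call. Irx2 read -2.93, -2.997, -3.76 and -2.50 in RV and -0.36, -0.22 and 0.16 in the septum, and differed by -2.87 (SE 0.33, adjusted p = 0.0022). LV lay between RV and septum for both, at 0.39 ± 0.25 (SD, n = 3) for Irx1 and -2.18 ± 0.57 (SD, n = 3) for Irx2. The difference between RV and LV was called for Irx1 (-1.29, adjusted p = 0.00642) and was not called for Irx2 (-0.83, adjusted p = 0.117). The excess of the septum over LV was 1.44 for Irx1 (adjusted p = 0.106) and 2.04 for Irx2 (adjusted p = 0.139), and neither was called.

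Irx1, Irx2 and Irx4 lie on chromosome 13 and Irx3, Irx5 and Irx6 on chromosome 8. Irx5, a repressor of Kcnd2 in the ventricular wall of the mouse, averaged -2.12 in RV (SD 0.23, n = 4) and -1.17 in the septum (SD 0.18, n = 3), and differed by -0.96 (SE 0.14, adjusted p = 0.00567). Irx4, a marker of ventricular muscle, averaged 2.61 in RV (SD 0.29, n = 4) and 2.65 in the septum (SD 0.27, n = 3) and was not called (-0.12, adjusted p = 0.314). Irx3 was not called either, and Irx6 did not pass the filter. Both chromosomal groups held called and uncalled members.

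Over the 34 patterning factors tested, 8 were lower (5.71% of all genes) and 3 rose (5.34%) in RV, the list median being -0.10. Gata4, a zinc finger factor of heart muscle, was lower on every RV array (2.24 to 2.58) than on any septum array (2.59 to 2.89), with a difference of -0.32 (SE 0.047, adjusted p = 0.00613). The call of Gata4 was lost without the slide term and without Septum3. Tead1 (-0.47), Myocd (-0.38) and Srf (-0.32), which drive muscle genes, were called lower too, with adjusted p of 0.0054, 0.0119 and 0.0133. The increases included the forkhead factors Foxc1 at 0.92 (adjusted p = 0.00137) and Foxc2 at 0.53 (adjusted p = 0.0437). Foxc2 was not called with the replicate number as a block (0.58, adjusted p = 0.0517).

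Of the factors known for chamber identity, Hand2, Tbx5, Tbx20 and Nkx2-5 were not called. Hand2, which is needed for the right ventricle in the embryo, averaged 0.20 in either region (SD 0.12 over 4 RV arrays, 0.096 over 3 septum arrays), and its difference of 0.01 was not called (adjusted p = 0.95). Hand1 did not pass the filter. Tbx5 differed by -0.15 (adjusted p = 0.451), Tbx20 by -0.10 (adjusted p = 0.344) and Nkx2-5 by -0.17 (adjusted p = 0.263). A further probe of Tbx20 stood at 0.36, against the direction of the brightest probe. The counts of the list were 2 higher and 3 lower without the slide term, and 1 and 5 without Septum3.

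**Figure D2:**
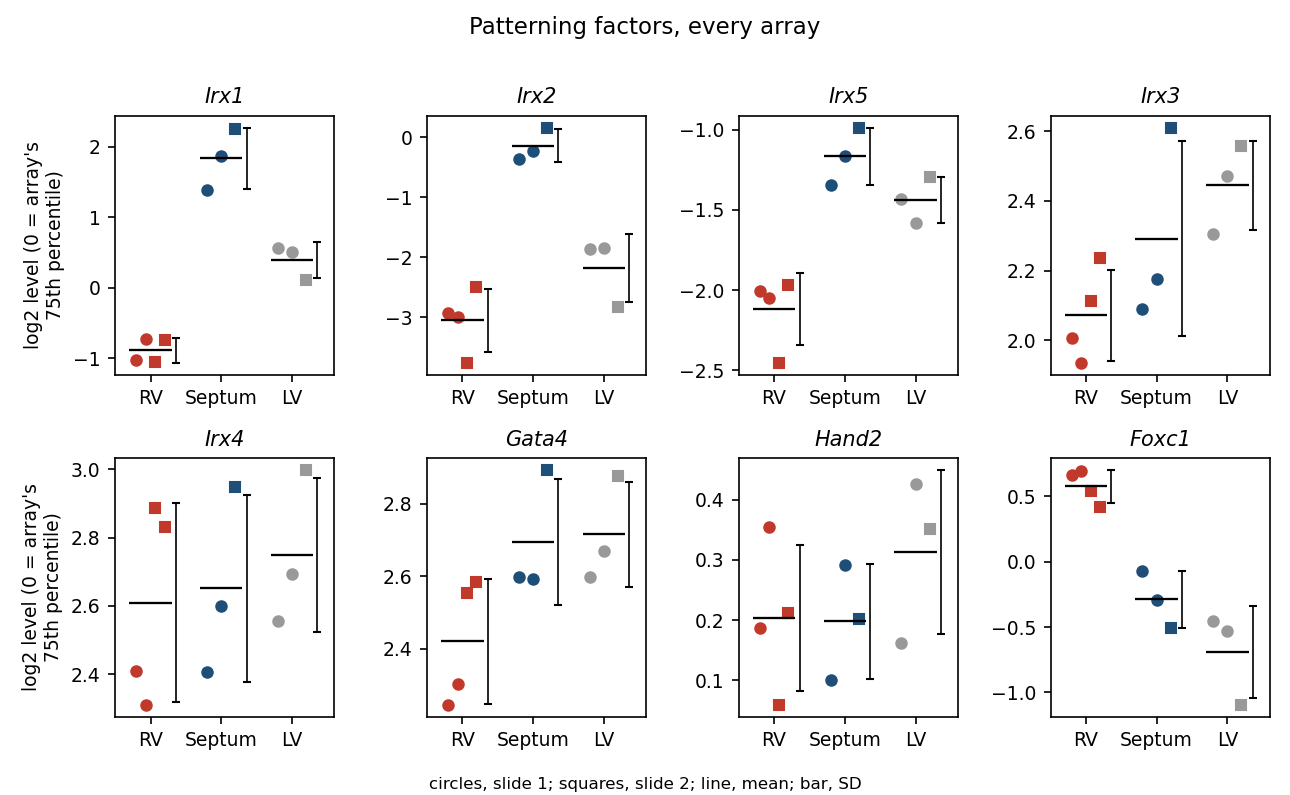
Log2 level of 8 patterning factors on each RV, septum and LV array, with the mean as a line and the SD as a bar. Irx1, Irx2 and Irx5 were lower on each RV array than on any septum array, whereas the arrays of Irx3 and Irx4 overlapped.

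Signals that pattern tissues were more often higher in RV, with 10 of 34 tested called higher (5.34% of all genes) and 3 lower, and a median of 0.16. Rspo1, an enhancer of Wnt signalling that mesothelial cells make, read 1.36, 1.44, 0.26 and 1.09 in RV and -1.22, -2.003 and -3.10 in the septum. Its difference of 3.31 (SE 0.25, adjusted p = 0.000403) was the largest of the list. The proteoglycan Gpc3 followed with 1.93 (SE 0.19, adjusted p = 0.00111), then Sema3d with 1.35 (SE 0.15, adjusted p = 0.00206). Sema3a (1.26) and Slit2 (1.24), reported above with the conduction genes, are in this list too and are counted again here. Slit3 differed by 1.09 (SE 0.13, adjusted p = 0.00251). Nrg1, the ErbB ligand of the endocardium, differed by 0.88 (adjusted p = 0.0281), and Bmp6, Wnt5a and Edn1 by 0.43 to 0.56. Rspo1 and Sema3d are also in the mesothelial list below, whose whole level was higher in RV, and the part of mesothelial cells in these values was not tested.

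Lower in RV were Sfrp5, an antagonist of Wnt signalling, together with Bmp7 and Sema3b. Sfrp5 read -0.67, -1.28, -1.78 and -1.60 in RV and 0.85, -0.37 and 0.44 in the septum, and fell by 1.60 (SE 0.31, adjusted p = 0.0185). Septum2 was the lowest septum array, and still lay above RV1. Bmp7 differed by -0.58 (adjusted p = 0.0159) and Sema3b by -0.42 (adjusted p = 0.0112). None of the 3 decreases was called without Septum3, where 8 of the increases were.

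Markers of the surface layer were higher in RV. Mesothelium covers the heart as a single sheet of keratin-rich cells, and 26 of its markers were listed. Of these, 24 were tested, 1 did not pass the filter (Cdh1) and 1 was not found by name (Muc16). In 11 of the 24 the probe was well above background on every RV array but not on every septum array, so that a difference was built in. Among the 13 that were well above background on all RV and septum arrays, 10 were higher in RV and 0 lower, against 4.83% of genes higher among the 13893 genes detected in that way, with a median of 0.85. The other 11 were all called higher, which their choice by detection had built in. The mean level of all 24, those 11 included, ran from -0.29 to 0.76 on the RV arrays and from -2.39 to -1.09 on the septum arrays. On the LV arrays it ran from -1.44 to -0.74. The RV arrays lay above all the others, which the 11 had in part built in. A mean level of the 13 alone was not taken.

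Msln, mesothelin, read 3.80, 3.75, 2.04 and 3.18 in RV and 0.66, -0.50 and -2.46 in the septum. The lowest RV array exceeded the highest septum array, and the difference was 4.21 (SE 0.41, adjusted p = 0.00113), at 3.69 within slide 1 and 5.07 within slide 2, with no call in the latter. RV3 was the lowest RV array and Septum3 the lowest septum array. Upk3b, a uroplakin, read 0.88, 0.89, -0.69 and 0.28 in RV against -1.99, -3.33 and -5.68 in the septum (difference 4.28, SE 0.48, adjusted p = 0.00195), and was well above background on 2 septum arrays. With signals at the background floor its difference was 3.46. Lrrn4 read -0.11, -0.08, -1.76 and -0.87 in RV against -3.46, -5.97 and -5.55, with 1 septum array above background (difference 4.48, SE 0.51, adjusted p = 0.0022). The difference of Lrrn4 was 3.07 at the floor, and both genes stayed called there. Lrrn4 passed the filter through RV alone, where it was high, and the floor does not undo that choice.

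The keratins of simple epithelia moved the same way. Krt18 was detected on every array and differed by 2.48 (SE 0.14, adjusted p = 0.000163), with RV arrays from 0.88 to 1.81 and septum arrays from -1.45 to -0.38. Krt19 differed by 4.11 (adjusted p = 0.00147) and Krt8 by 3.13 (adjusted p = 0.00223), each above background on 2 septum arrays, and at the floor they differed by 3.55 and 2.85. Bnc1, a zinc finger factor of epithelia, exceeded background on each RV array but on no septum array, and was at least 1.88-fold higher in RV (adjusted p = 0.0056), with no call at the floor (adjusted p = 0.235). The retinoic acid enzyme Aldh1a2, by which the epicardium is known, rose by 1.25 (SE 0.19, adjusted p = 0.00633).

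Of the genes known from the embryonic epicardium, Wt1 and Tcf21 were called and Tbx18 and Aldh1a1 were not. Wt1 averaged 0.63 in RV (SD 0.13, n = 4) and -0.28 in the septum (SD 0.42, n = 3), with a difference of 0.85 (adjusted p = 0.0311) that was not called with the replicate number as a block (0.89, adjusted p = 0.0648). Tcf21 differed by 0.52 (adjusted p = 0.0171), Tbx18 by 0.03 (adjusted p = 0.845) and Aldh1a1 by 0.08 (adjusted p = 0.576). Prg4, lubricin, went the other way at -0.82 (adjusted p = 0.104) and was not called. Between septum and LV no mesothelial gene was called, with a median of -0.72 in the septum. Between RV and LV the median was 1.70, where 8.81% of all genes were called higher in RV. The median between RV and septum over all 24, those 11 included, was 2.57, with 2.59 within slide 1 and 2.22 within slide 2. It was 1.59 with the normexp background correction and 1.95 at the floor. Over all 24, those 11 included, 17 members were called without Septum3 and 17 without the slide term. The 11 had in part built in these counts too, and counts without them were not taken for these alternatives.

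Of 12 junction genes of epithelia tested, 2 were higher (5.34% of all genes) and 1 was lower (5.71%) in RV. Cldn3, a tight junction claudin, was above background on every RV array and no septum array and was at least 2.71-fold higher (adjusted p = 0.00732), with no call at the floor (adjusted p = 0.0916). Cldn15, which is also in the mesothelial list, differed by 1.86 (adjusted p = 0.00233). Pkp2, plakophilin-2 of the cardiac desmosome, was lower by 0.24 on the log2 scale (adjusted p = 0.0219), with RV at 4.61 ± 0.042 (SD, n = 4) and the septum at 4.85 ± 0.057 (SD, n = 3). With the replicate number as a block Pkp2 was not called (-0.23, adjusted p = 0.0512). Of the 14641 genes tested, 13 were above background on all RV arrays and no septum array, and 0 the reverse. Septum3 had a smaller share of spots well above background (54.2%) than any RV array (56.2% to 64.0%). The part of detection in this count was not tested. Cybrd1, a ferric reductase, had the largest bound, at least 4.22-fold (adjusted p = 0.000696), and others were Cldn3, Sertm1 (at least 2.10-fold, not called at the floor) and Serpinb3b (at least 2.06-fold, not called).

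**Figure D3:**
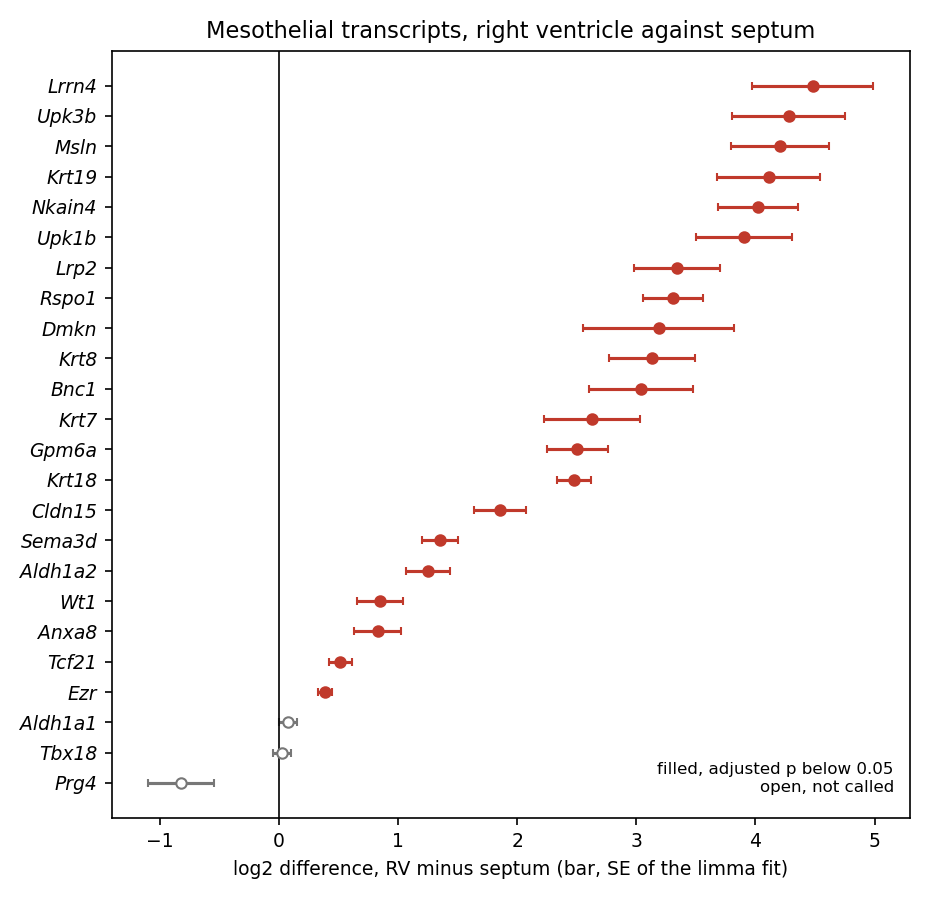
Log2 difference of RV minus septum for the 24 mesothelial genes tested, with the SE of the fit as a bar, filled where the adjusted p was below 0.05. All but Tbx18, Aldh1a1 and Prg4 were called. In 11 of the genes, Lrrn4, Upk3b, Krt19 and Krt8 among them, some or all septum arrays were not well above background.

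Of 132 genes of the extracellular matrix, 15 were higher and 6 lower in RV, which is 15.9% called against 11.1% of all genes. Of 26 collagens, 4 were higher in RV (5.34% of all genes) and 0 lower, with a median of 0.12 that was -0.03 within slide 1 and 0.34 within slide 2. The fibrillar collagens of scar and wall were not among them. Col1a1 read 2.03, 2.31, 3.89 and 3.73 in RV and 2.50, 2.33 and 2.996 in the septum, so both RV arrays of slide 2 lay above every septum array and both of slide 1 below. The difference was 0.21 (adjusted p = 0.647) and reversed to -0.24 within slide 1. Col3a1 differed by 0.71 (adjusted p = 0.106). The called members were the transmembrane collagens Col23a1 (1.03, adjusted p = 0.00916) and Col13a1 (0.46, adjusted p = 0.0418), the fibril-associated Col14a1 (0.95, adjusted p = 0.0282) and the basement membrane chain Col4a4 (0.53, adjusted p = 0.0218). Col23a1 was well above background on every RV array but on 2 septum arrays only, so that its difference was in part built in. Over the 24 collagens well above background on all RV and septum arrays, 3 were higher in RV. With the replicate number as a block 1 collagen was called, without the slide term 1 and without Septum3 0, and Col14a1 (0.88, adjusted p = 0.0742), Col4a4 (0.51, adjusted p = 0.0617) and Col13a1 (0.51, adjusted p = 0.0510) were those lost under the block.

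Matrix glycoproteins were called in 10 of 57 cases, 6 higher (5.34% of all genes) and 4 lower (5.71%) in RV, with a median of 0.08. Efemp1, fibulin-3, read 3.04, 3.07, 1.90 and 2.44 in RV and 1.76, 1.41 and 0.81 in the septum, and differed by 1.41 (SE 0.15, adjusted p = 0.00142). Smoc1, a basement membrane protein, rose by 0.84 (adjusted p = 0.00737), and Mfap2, a microfibril protein, by 0.65 (adjusted p = 0.00479). Lower in RV were Ccn1, a matricellular protein, at -0.67 (SE 0.067, adjusted p = 0.0012), and the microfibril gene Fbn2 at -0.66 (adjusted p = 0.0168). Ccn1 read 1.17, 1.18, 1.70 and 1.61 in RV and 1.89, 1.92 and 2.27 in the septum, so every RV array lay below every septum array. Without the slide term Efemp1 (1.29), Mfap2, Ccn1 and Fbn2 were not called, and the list held 1 increase and 1 decrease.

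Some well known matrix genes varied widely among the RV arrays. Spp1, osteopontin, read -4.98, -3.95, 0.21 and -1.79 in RV and -0.41, -1.51 and -0.39 in the septum, and was above background on 2 RV arrays. Its difference of -2.15 was not called (SE 0.82, adjusted p = 0.145). Eln, elastin, read -1.07, -0.78, 0.89 and 0.09 in RV and -1.49, -1.74 and -1.36 in the septum, and missed the call at 1.20 (adjusted p = 0.0556), which it passed in 5 of the alternatives. Fn1 differed by 0.39 (adjusted p = 0.123), Postn by 0.008 (adjusted p = 0.99) and Comp by -0.35 (adjusted p = 0.545). Against LV, Comp was higher by 3.02 in the septum (adjusted p = 0.0498) and by 2.68 in RV (adjusted p = 0.0023).

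Of 14 proteoglycans tested by limma, 0 were called, 4 had an unadjusted p below 0.05, and 0 passed the study's Tukey test before adjustment. Decorin (Dcn), a collagen-binding proteoglycan, was measured on all arrays, averaging 8.17 in RV (SD 0.031, n = 4) and 7.93 in the septum (SD 0.15, n = 3), and differed by 0.27 (adjusted p = 0.0572). Lumican (Lum) differed by 0.31 (adjusted p = 0.404). Among 35 matrix enzymes and inhibitors, 5 were higher (5.34% of all genes) and 2 lower (5.71%). Mmp9, a gelatinase, was above background on 1 septum array and differed by 1.58 (adjusted p = 0.0341), with no call under the replicate block (1.55, adjusted p = 0.0551) and a difference of 0.83 at the background floor. Mmp23 rose by 0.67 (adjusted p = 0.00659) and the inhibitor Timp2 by 0.60 (adjusted p = 0.00888). Mmp15 differed by -0.31 (adjusted p = 0.0212) and the prolyl hydroxylase P4ha2 by -0.27 (adjusted p = 0.0373), the latter not called under the block (-0.28, adjusted p = 0.0558). Without Septum3 no matrix enzyme was called. The median of 14 fibroblast markers was 0.33 with 5 called higher (3 under the block, 0 without Septum3), and the part of fibroblasts in the matrix values was not tested.

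Genes that muscle raises under load were lower in RV, where 7 of 13 tested were called lower (5.71% of all genes) and 0 higher, with a median of -0.74. Nppb, brain natriuretic peptide, read 1.19, 1.72, 5.11 and 3.55 in RV and 5.80, 5.63 and 7.33 in the septum. The RV arrays spread widely but stayed below the septum arrays, and the difference was -3.72 (SE 0.41, adjusted p = 0.00176). Within slide 1 it was -4.26 and within slide 2 -3.003, where it was not called, as it was not without the slide term (-3.36). Nppa, atrial natriuretic peptide, read 5.16, 3.17, 5.41 and 3.86 in RV and 7.48, 6.23 and 6.45 in the septum, and differed by -2.33 (SE 0.56, adjusted p = 0.0384). The call of Nppa was lost in 14 of the alternatives, without the slide term and without any 1 of the septum arrays among them.

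The slow myosin Myh7 differed by -1.97 (SE 0.43, adjusted p = 0.0268), with RV arrays from 2.55 to 3.74 and septum arrays from 3.99 to 5.62. Mybpc2, the fast isoform of myosin-binding protein C, differed by -1.96 (SE 0.25, adjusted p = 0.00386), and the titin-associated repeat protein Ankrd1 by -1.38 (SE 0.25, adjusted p = 0.0135). Xirp2 and Rcan1 differed by -0.74 and -0.41. Acta1, skeletal actin, was at -1.65 and was not called (adjusted p = 0.088), with every RV array below the septum arrays. Between septum and LV none of the 13 was called by limma, and the median of the list was 0.14. Without the slide term 1 gene of the list was called and without Septum3 3.

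Over all genes, those named for size alone were of mixed kind. Prss12, a secreted protease, differed by 2.49 (SE 0.18, adjusted p = 0.00036) and Spon2, a matrix protein of the spondin family, by 2.26 (SE 0.15, adjusted p = 0.00024). Spon2 read -0.24, 0.25, 0.01 and -0.36 in RV and -2.34, -2.14 and -2.47 in the septum, with LV at -1.26 ± 0.18 (SD, n = 3), and kept its call in every alternative. Cyp2s1, a cytochrome P450, differed by 3.37 and the complement component C2 by 2.92. The carbonic anhydrase Car3 and the adipokine Adipoq, both made by fat cells, differed by 2.66 and 2.32, with no call under the replicate block (adjusted p = 0.0580 and 0.118). Among 14 adipocyte markers 5 were called higher (5.34% of all genes; 1 under the block and 0 without Septum3), whereas Fabp4, Lpl and Pparg were not called, and the median was 0.03.

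Decreases of this size in RV included Gnb3 and Plekhh1. Gnb3, a G protein beta subunit, read -1.79, -1.97, -1.13 and -1.75 in RV and 0.40, 0.45 and 0.46 in the septum, and fell by 2.12 (SE 0.17, adjusted p = 0.00045). Plekhh1 differed by -2.08 (adjusted p = 0.0043). Septum minus LV was 0.09 for Gnb3 and 0.31 for Plekhh1, and neither was called.

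Whether the septum stood apart from both free walls was tested by the contrast of septum and LV, which called 11 genes (0.0751% of those tested) and 14 probes (0.0463%). Both contrasts use the same septum arrays. Higher in the septum than in LV and also called against RV in the same direction were Cntn2, Cacna1g and Pvalb, which encodes the calcium buffer parvalbumin. Pvalb read -1.89, -1.78, -2.13 and -2.40 in RV and -0.25, -0.44 and 0.03 in the septum, and differed by -1.80 (SE 0.17, adjusted p = 0.00082). Septum minus LV was 1.70 for Pvalb (adjusted p = 0.0411). Kcnd2 was lower in the septum in both. Parvalbumin is in no list used here and was chosen after its values were seen. Without the slide term 0 probes were called between septum and LV by limma, with 862 at an unadjusted p below 0.05, and under the replicate block 0 as well, with 2242. Signals at the background floor left 2 probes, and leaving out RV1, RV2, RV4, LV1, LV3 or Septum3 also left 0 of 14 probes.

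**Figure D4:**
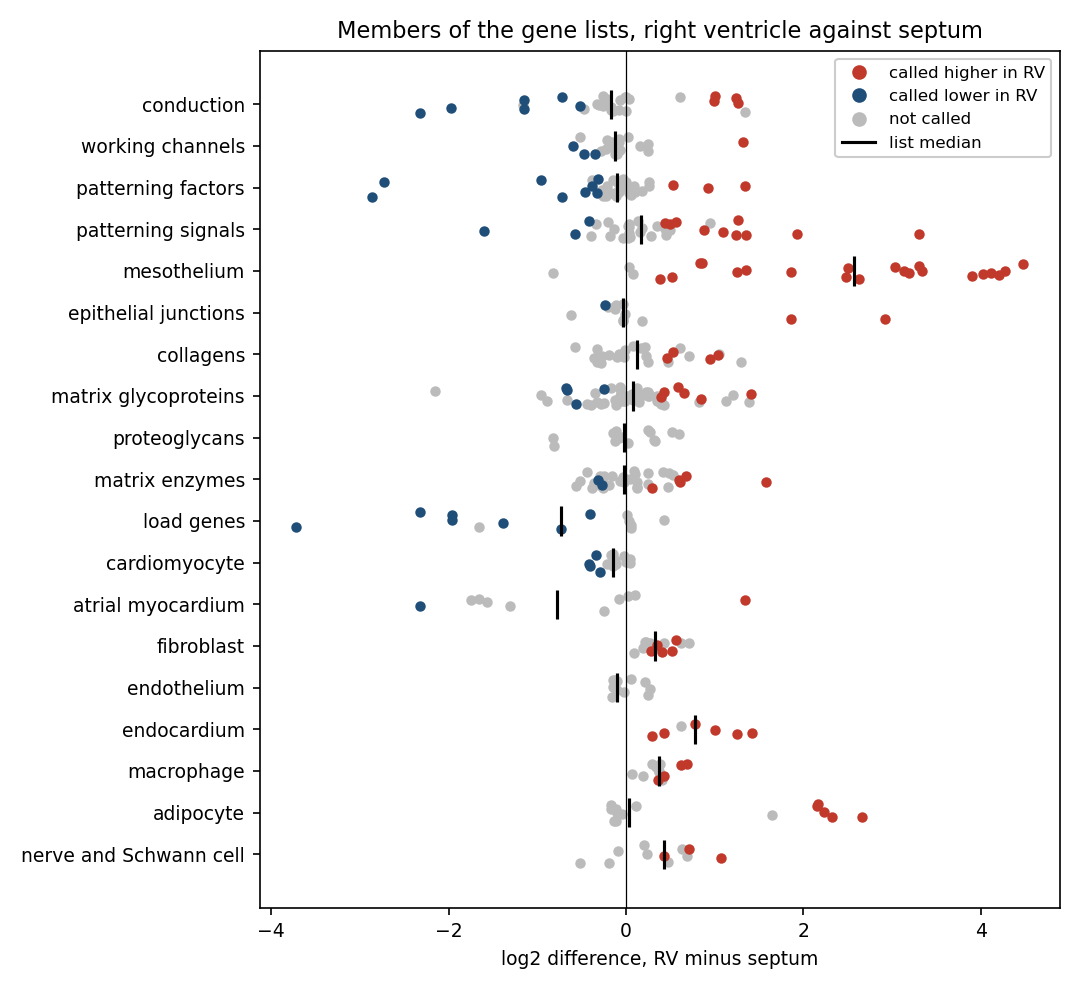
Log2 difference of RV minus septum for each tested member of 19 gene lists, coloured by call, with the list median as a bar. The mesothelial list stood farthest to the right (median 2.57), in part through the 11 members whose difference was built in. Its median was 0.85 over the 13 members well above background on all RV and septum arrays, against 0.77 for the endocardial list. Called members of the conduction and patterning lists lay on both sides of 0.

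**Figure D5:**
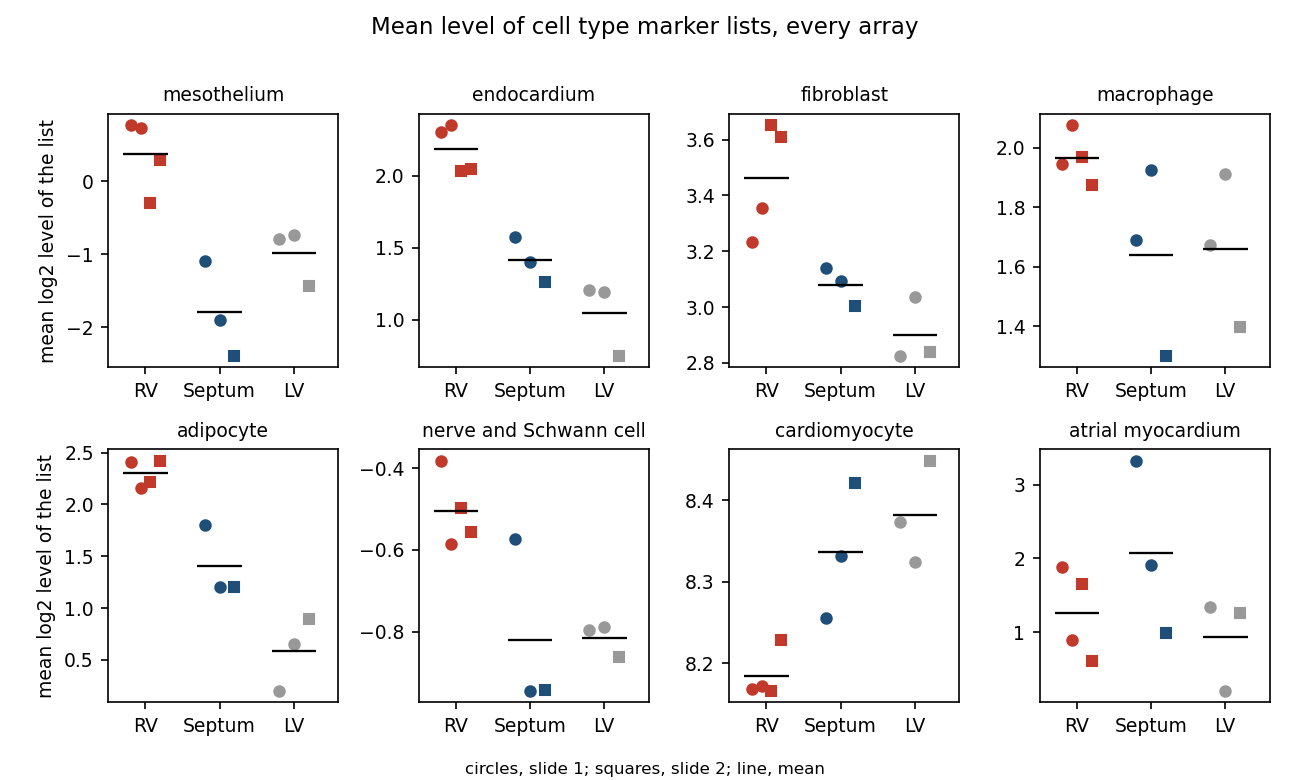
Mean log2 level of 8 marker lists on each RV, septum and LV array, with the group mean as a line. The mesothelial, endocardial, fibroblast and adipocyte lists were higher on each RV array than on any other array. The atrial list was highest on Septum1 at 3.33. The mesothelial mean includes the 11 genes not well above background on every septum array, which had in part built in its gap.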

How the data were processed

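Each sample was hybridised to a single-colour Agilent mouse array. Per the file headers the authors extracted spot intensity values with Agilent Feature Extraction 11.5.1.1 (background-subtracted processed signal), and they also deposited a table of normalized log2 values, used as an alternative. Here processed intensities were taken to log2, each array's 75th percentile was subtracted, control spots and outlier flags were left out, and probes well above background on every array of a region were kept (30234 of 56605). R 4.3.3 and limma 3.58.1 fitted region and slide over all 10 arrays, with Benjamini-Hochberg adjustment over probes. The fit was tested on simulated data. Slide 2 held 1 septum array, assumed to vary like the others. A gene took its brightest probe. Names came through RefSeq accessions, and promoters from RefSeq (GRCm38.p6). Normexp, an alternative, used the median signals. The study's methods used ANOVA with Tukey's test, run as an alternative.

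Named were fixed anchors, the 3 largest called changes each way of every conduction, patterning, surface, matrix and load list, the 10 largest overall and the 5 largest bounds. Setting signals below the background floor to that floor was an alternative chosen after the data were seen. A bound compares the bright group with the lowest signal among probes well above background. A few genes that the rule gives are not reported here. Other genes named as list members were chosen after their values were seen. The members and lists were chosen with earlier results of these data known. Nothing says whether same-numbered arrays share an animal. Their deviations correlated (0.42, 0.456 and 0.444 for RV and septum pairs 1 to 3), but numbers follow slides, and with the slide removed the correlations were 0.026, 0.066 and -0.435. Pairs of unlike number on the same slide then gave -0.265 (RV1 and Septum2), -0.405 (RV2 and Septum1) and -0.201 (RV4 and Septum3). Removing region and slide means itself lowers such correlations, so they do not settle whether the arrays are paired. P-values measure the spread between these samples, which may be technical.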

Additional observations from a re-analysis of the deposited data

Results flagged for a closer look

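In a group of 4 arrays, 3 of the 89 named genes had 1 RV array whose gap to its nearest neighbour took an unusually large share of the range of the group, where chance gives about 1 in 20. For Irx5 the share was 0.836, with RV3 at -2.45 and the other RV arrays between -2.05 and -1.97. For Tbx5 it was 0.867, with RV4 at 2.26 against 1.81 to 1.87. For Col4a4 it was 0.861, with RV1 at -2.36 against -2.01 to -1.95.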

How the results depend on the processing

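None of the 66 called named genes changed direction under any alternative, and 3 (Irx1, Kcnd2 and Spon2) kept the call under all of them. The counts depended more on the setting. Against 2643 probes (1217 higher and 1426 lower in RV), 628 (364 and 264) were called without the slide term, 1613 (787 lower) on the RV and septum arrays alone, 478 (272 and 206) within slide 1, 171 (89 and 82) within slide 2, 675 (383 and 292) without the filter, and 129 (66 and 63) by the study's Tukey test after adjustment. Leaving out 1 array gave 709 to 2449 probes, 386 to 1149 of them higher and 323 to 1352 lower. The lowest count was without Septum3, then 1181 without Septum2, 1548 without RV1, 1560 without RV2 and 1608 without RV4. Between septum and LV, 14 probes became 0 without the slide term, 0 with the replicate block, 0 within slide 1, 1 within slide 2, 0 without the filter, 37 with the slide as a random block, 24 among probes detected on every array, 2 with signals at the background floor, and 445 and 0 by Tukey's test before and after adjustment. Leaving out 1 array gave 0 to 15.

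With the replicate number as a block 2154 probes were called (1015 higher, 1139 lower), and 56 of the 66 named calls held. The 10 lost were Wt1, Cacna2d2, Foxc2, Pkp2, Col14a1, Col4a4, Mmp9, P4ha2, Car3 and Adipoq, and the block changed no other RV-against-septum call of a gene named by the rule. The calls of Cntn2, Kcnd2 and Comp between septum and LV were lost with it too. With signals at the background floor, an alternative chosen after the data were seen, 2580 probes were called and 62 of the 66 named calls held.

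None of the gene values that reversed was called. Etv1 (0.004) became -0.022 with the replicate block, -0.00404 on RV and septum alone, -0.20 within slide 2 and -0.031 with normexp, and leaving out 1 array gave -0.11 to 0.13. Hand2 became -0.066 within slide 2, and -0.046 to 0.054 without 1 array. Postn became -0.015 with the block, -0.036 on RV and septum alone and -0.45 within slide 1, and -0.19 to 0.18 without 1 array. Col1a1 became -0.24 within slide 1, and -0.019 to 0.42 without 1 array. Lum became -0.017 and the collagen median -0.034 within slide 1, Comp became 0.039 and the atrial median 0.24 within slide 2, and a further probe of Tbx20 gave 0.36. The cause was not tested. Signal over background limits the dim genes.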

Other observations

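Endocardial transcripts were higher in RV than in the septum for 6 of 7 markers tested, with a median of 0.77, against 5.34% of all genes. Npr3, the natriuretic peptide clearance receptor, differed by 1.42 (adjusted p = 0.00082), Vwf, von Willebrand factor, by 1.25 (adjusted p = 0.00047), and Plvap, a diaphragm protein of fenestrated vessels, by 0.998 (adjusted p = 0.00024). Cytl1 stood at 0.62 and was not called (adjusted p = 0.169). The mean level of the list was 2.03 to 2.35 on the RV arrays and 1.26 to 1.57 on the septum arrays, without overlap. Without the slide term 3 members were called. Of 12 general endothelial markers 0 were called by limma, 4 had an unadjusted p below 0.05 and 1 passed the study's Tukey test before adjustment, and their median was -0.10.

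Other lists had fewer calls. Of 12 macrophage markers 4 were higher in RV (Cd163, Folr2, Csf1r and C1qa, by 0.36 to 0.69), against 5.34% of all genes, with 0 without the slide term. Csf1r was not called with the replicate number as a block. Of 11 nerve and Schwann cell markers 3 were higher, with Gfra3 at 1.07 (adjusted p = 0.00476). Of 6 lymphatic markers tested 2 were higher (5.34% of all genes) and 4 were not called. The 2 were Lyve1 and Pdpn, which differed by 0.78 and 1.02, and neither was called without the slide term.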
